A study of Homo sapiens with 4 samples.

Results

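METTL1 and WDR4 encode the enzyme pair that forms 7-methylguanosine (m7G) in the variable loop of a subset of tRNAs. METTL1 is the catalytic subunit and binds the methyl donor. WDR4 has no catalytic activity of its own and holds METTL1 and the tRNA in place. The yeast counterparts are Trm8 and Trm82, and in yeast tRNAs that lack this and other modifications are degraded. Both human genes are studied in esophageal squamous cell carcinoma, where tRNA m7G has been linked to translation of messages of the mTORC1 and autophagy pathways. The libraries described here hold poly(A) RNA, so they measure the mRNAs of the enzyme and neither tRNA nor m7G itself.

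The members are the rows of the deposited table named METTL1 and WDR4, 2 of 17064 rows, and each name has 1 row. They were chosen by name, because the last line of the table names Mettl1 as a hairpin target. The study compared cells carrying a stable short hairpin RNA against NSUN6, which encodes a 5-methylcytosine enzyme of RNA, with cells of normal NSUN6 expression. All are labelled KYSE-150, an established cell line from an esophageal squamous cell carcinoma. All cells received cycloheximide, which holds ribosomes on their messages, and from each lysate an input was kept and polyribosome-bound RNA was collected through a sucrose cushion. The 4 groups are knockdown-labelled input, control input, knockdown-labelled polyribosome RNA and control polyribosome RNA, with 1 library per group. There is therefore no replicate error and no p-value, and every difference is one between single libraries. Whether the hairpin cells were 1 clone or a pool is not given in the sources used here.

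The last line of the table holds column names that differ from the header and from the labels. There the control columns are K150 cells with a GFP hairpin, and the columns labelled knockdown are K30 cells with a Mettl1 hairpin. That line also puts the input of these cells before their polyribosome RNA, where the header has the opposite. The header was followed because it matches the labels, the cells are called knockdown-labelled, and values with their 2 fractions exchanged are given where they differ. The effect of a hairpin and a difference between cell lines cannot be told apart in these libraries. Of the epithelial keratins, KRT8 was at 1503 FPKM or more and KRT18 at 1616 FPKM or more in all 4 libraries. Of the 4 squamous markers, TP63 was at 23.66 FPKM in knockdown-labelled input and 30.25 FPKM in control input. On polyribosomes TP63 was at 2.16 FPKM in knockdown-labelled cells and 28.77 FPKM in control cells. With the fractions exchanged, 2.16 FPKM is the knockdown-labelled input value of TP63. KRT6A was at 34.25 FPKM in knockdown-labelled input and 29.51 FPKM in control input. KRT14 was at 3.83 FPKM in knockdown-labelled input and 64.76 FPKM in control input. KRT5, of basal squamous cells, was at 0.45 FPKM in knockdown-labelled input and 906 FPKM in control input. KRT19, of simple epithelia, was at 1488 FPKM in knockdown-labelled input and 0.07 FPKM in control input. Knockdown-labelled polyribosome RNA had KRT6A at 40.03 FPKM, KRT14 at 3.92 FPKM, KRT5 at 0.7 FPKM and KRT19 at 1973 FPKM. The part of such differences between the cells in the results below was not tested. FPKM is a fragment count scaled to transcript length and to library size. The sum of FPKM ranged over the libraries from 538002 to 627887, and the read depth is unknown.

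METTL1 was lower in both knockdown-labelled libraries, and WDR4 differed little. METTL1 stood at 5.98 FPKM in knockdown-labelled input and 13.02 FPKM in control input, or 45.9% of control. On polyribosomes it stood at 8.32 FPKM in knockdown-labelled cells and 14.32 FPKM in control cells, or 58.1% of control. Both knockdown-labelled values lay below both control values, so METTL1 was lower whichever fraction the columns hold. In bulk RNA of this kind, fewer expressing cells and less RNA per cell cannot be told apart. With the fractions exchanged it was at 63.9% of control in input and 41.8% on polyribosomes.

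WDR4 was at 12.38 FPKM in knockdown-labelled input and 13.13 FPKM in control input, or 94.3% of control. On polyribosomes it was at 16.56 FPKM in knockdown-labelled cells and 14.67 FPKM in control cells, or 113% of control. The 2 knockdown-labelled values lay on either side of the 2 control values. After exchange of the fractions WDR4 was at 126% of control in input and 84.4% on polyribosomes, so the sign of its small differences depends on the column order.

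**Figure D1:**
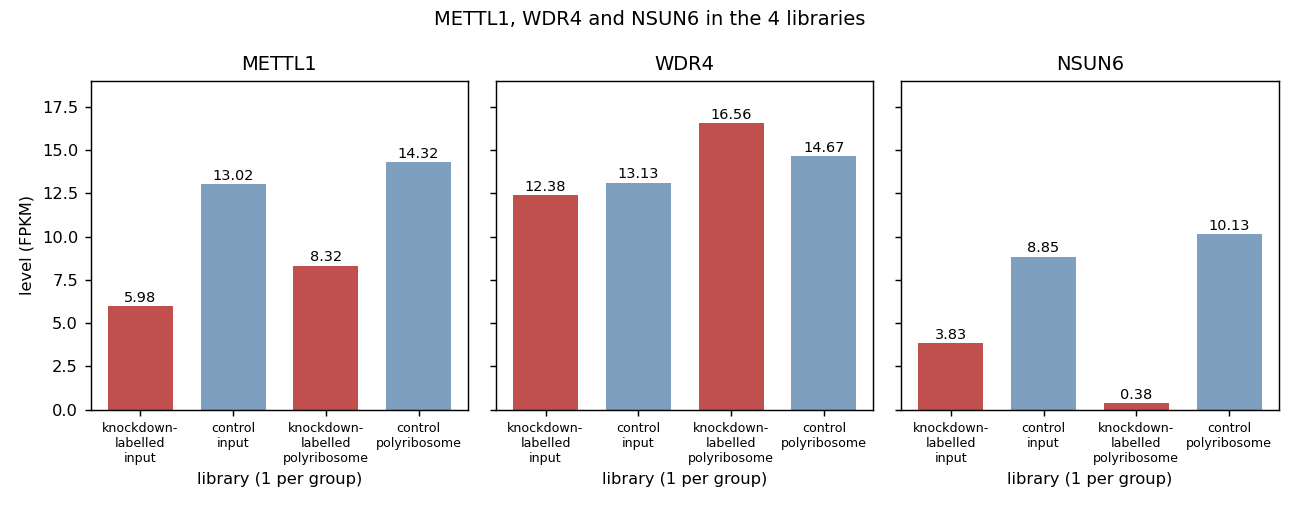
Level in FPKM (vertical axis, from 0) of METTL1, WDR4 and NSUN6 in the 4 libraries, 1 bar per library and with no error bars because there is 1 library per group. METTL1 is lower in both knockdown-labelled libraries, WDR4 lies between 12.38 and 16.56 FPKM throughout, and NSUN6 is lowest, at 0.38 FPKM, in knockdown-labelled polyribosome RNA.

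On the log2(FPKM + 1) scale, which understates differences of low genes, the METTL1 difference was -1.01 in input and -0.72 on polyribosomes, knockdown-labelled minus control. The same differences for WDR4 were -0.08 and 0.16. Averaged over both fractions, a quantity that does not depend on the column order and was added after the values were seen, METTL1 differed by -0.86 and WDR4 by 0.04. The threshold used for counts below is a 2-fold difference, 1 on this scale. METTL1 in input lay just past it and METTL1 on polyribosomes short of it. After the exchange the input difference was -0.59 and the polyribosome difference -1.13, so which fraction passes depends on the column order.

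The 2 subunits were at nearly equal levels in control cells and unequal in knockdown-labelled cells. FPKM is per length, so the levels can be set side by side. The ratio of METTL1 to WDR4 was 0.483 in knockdown-labelled input and 0.992 in control input. It was 0.502 in knockdown-labelled polyribosome RNA and 0.976 in control polyribosome RNA. Both knockdown-labelled ratios were about the same, so exchanging the fractions hardly moves this comparison. On the log2(FPKM + 1) scale the METTL1 difference minus the WDR4 difference was -0.93 in input and -0.88 on polyribosomes. Exchanging the fractions gave -0.90 and -0.91. Transcripts of both genes are alike in length and base composition, with 2066 bases and 57.2% GC for METTL1 and 2122 bases and 58.2% GC for WDR4 in the GENCODE transcripts used. With the trend on GC content and length removed, the gap between the members was -0.93 in input and -0.80 on polyribosomes.

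NSUN6, the target named in the labels, was lower than in control in both fractions. It stood at 3.83 FPKM in knockdown-labelled input and 8.85 FPKM in control input, or 43.3% of control. On polyribosomes it stood at 0.38 FPKM in knockdown-labelled cells and 10.13 FPKM in control cells, or 3.75% of control. In input, the METTL1 and NSUN6 differences on the log2(FPKM + 1) scale, -1.01 and -1.03, were 0.02 apart. On polyribosomes they were 2.29 apart, with METTL1 at -0.72 and NSUN6 at -3.01. In the other column order the gap moved to input, where METTL1 was at -0.59 and NSUN6 at -2.84. On polyribosomes the exchanged values were then -1.13 for METTL1 and -1.20 for NSUN6. The size of the polyribosome gap in the header's order depended on the processing. With GC content and length removed it was 0.53, with METTL1 at -1.31 and NSUN6 at -1.85, and with a pseudocount of 5 it was 0.96. With a pseudocount of 0.1 it was 3.64, and with median centring or upper quartile scaling it stayed at 2.29.

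Differences of this size were common among all genes. The background was taken over 7379 genes whose 4-library mean reached 5 FPKM. Of these, 14.4% were at least 2-fold lower and 13.2% at least 2-fold higher in knockdown-labelled input. On polyribosomes the shares were 32.9% lower and 16.7% higher. Against this background, 1 of the 2 members passed the threshold in input and 0 of 2 did on polyribosomes. The input call, for METTL1, rests on a value at the threshold and was lost with GC content and length removed (-0.99), with a pseudocount of 5 (-0.71) and with the fractions exchanged (-0.59). On polyribosomes METTL1 passed with GC content and length removed (-1.31) and with the fractions exchanged (-1.13). The median difference of all these genes was 0.01 in input and -0.28 on polyribosomes.

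Genes of like expression were those whose mean log2(FPKM + 1) over the 4 libraries lay within 0.5 of the member's, 1849 genes for METTL1 and 1738 for WDR4. In input, 271 of the 1849 genes, or 14.7%, were at least as low as METTL1. On polyribosomes 886 genes, or 47.9%, were at least as low, and the median of all 1849 genes, at -0.61, was close to METTL1 at -0.72. Of the 1849 genes, 207, or 11.2%, were at least as low as METTL1 in both fractions. For the mean of both fractions the share was 30.3%. In the other column order the shares were 49.8% in input and 11.1% on polyribosomes. METTL1 thus lay in the lower part of its peers in 1 fraction and near their middle in the other.

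In the header's order NSUN6 lay further down among its own peers on polyribosomes, but not in input. Of 2094 genes of like expression to NSUN6, 334 were at least as low in input, where the same count for METTL1 was 271 of 1849, 37 (1.77%) were on polyribosomes and 36 (1.72%) in both fractions. With the fractions exchanged 6.40% were at least as low in input and 9.22% on polyribosomes, so NSUN6 then lay further down than METTL1 in input and about as far on polyribosomes. For the mean of both fractions 5.16% were at least as low. WDR4 was near the middle of its peers, with 46.4% of them at least as low in input and 64.8% on polyribosomes. These shares count genes within single pairs of libraries, so they test no difference between conditions.

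**Figure D2:**
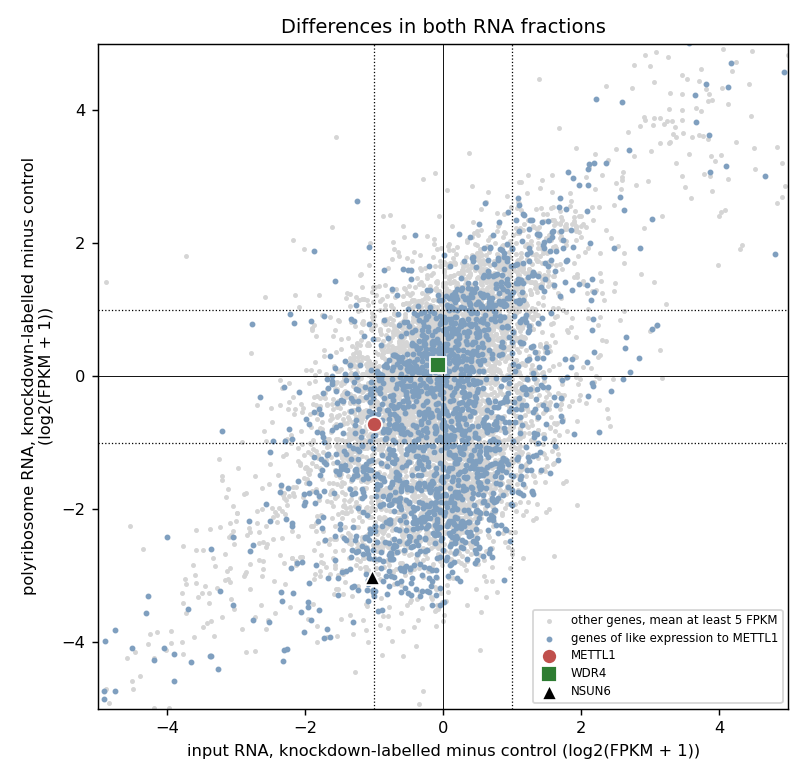
Difference in polyribosome RNA (vertical) against difference in input RNA (horizontal), knockdown-labelled minus control in log2(FPKM + 1), 1 point per gene of the background. Blue points are genes of like expression to METTL1, dotted lines mark 2-fold, and 104 genes lie outside the axes. METTL1 sits at -1.01 and -0.72 inside the cloud of blue points, WDR4 near the origin, and NSUN6 at the lower edge at -1.03 and -3.01.

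Translation efficiency, the log2 level in polyribosome RNA minus that in input RNA, was slightly higher in knockdown-labelled cells for both subunits in the header's order. METTL1 was at 0.42 in knockdown-labelled cells and 0.13 in control cells, a difference of 0.29. WDR4 was at 0.39 in knockdown-labelled cells and 0.15 in control cells, a difference of 0.24. The 2 members therefore differed from each other by 0.05 in this quantity, although METTL1 was lower as RNA and WDR4 was not. In the background, 30.1% of genes had an efficiency at least 2-fold lower and 12.0% at least 2-fold higher in knockdown-labelled cells, and 0 of the 2 members passed in either direction. Among the genes of like expression, 70.5% had an efficiency difference at or below that of METTL1 and 63.5% at or below that of WDR4. With the fractions exchanged these shares were 18.8% and 24.2%. In the authors' deposited table, whose ratios have 5 added to both FPKM, METTL1 had an efficiency of 1.21 in knockdown-labelled and 1.07 in control cells. The authors' deposited table gives WDR4 1.24 in knockdown-labelled and 1.08 in control cells. The sign of these differences is not settled. They were -0.55 for METTL1 and -0.54 for WDR4 with the fractions exchanged, and with GC content and length removed -0.32 and -0.46.

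The genes for 2 enzymes that form m7G outside tRNA, and for their 2 partners, were not lower in knockdown-labelled input. BUD23, listed as WBSCR22, forms m7G in ribosomal RNA and was at 131 FPKM in knockdown-labelled input and 125 FPKM in control input. TRMT112, the small activator that BUD23 and several tRNA methyltransferases bind, was at 260 FPKM in knockdown-labelled input and 239 FPKM in control input. RNMT, which adds the cap m7G of mRNA, was at 10.37 FPKM in knockdown-labelled input and 6.61 FPKM in control input. On polyribosomes RNMT was at 1.60 FPKM in knockdown-labelled and 7.82 FPKM in control cells. Its activator RAMAC, listed as FAM103A1, was at 32.38 FPKM in knockdown-labelled input and 22.80 FPKM in control input. So of these 4 genes 0 were lower than control in input, in the header's order, where the median of all background genes was 0.01. On polyribosomes RNMT was at -1.76, FAM103A1 at -0.62 and WBSCR22 at -0.23, and TRMT112 was higher at 0.56. The median of all background genes on polyribosomes was -0.28. In the other order RNMT was at -1.55 and FAM103A1 at -0.57 in input, so the direction of both turned, while WBSCR22 was at 0.12 and TRMT112 at 0.85.

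In that list of 7 measured genes, 1 was at least 2-fold lower and 1 at least 2-fold higher in input, beside 14.4% and 13.2% of the background. The lower one was PCIF1, which methylates the adenosine next to the cap, at -1.54, and the higher one CMTR1, a cap ribose methyltransferase, at 1.48. DXO, which removes incomplete caps, was at -0.18 in input and 1.04 on polyribosomes. With the fractions exchanged PCIF1 was at -0.30, DXO at 0.92 and CMTR1 at 1.60 in input. The 1 gene of this list at least 2-fold lower was then RNMT, at -1.55. Of 5 measured cap-binding proteins 0 were 2-fold lower in input and 3 were on polyribosomes, beside 14.4% and 32.9% of the background. EIF4E, the cap-binding initiation factor, differed by 0.35 in input and -2.34 on polyribosomes. NCBP1 of the nuclear cap-binding complex was at 0.72 and -2.16, and its partner NCBP2 at 1.31 and -0.98. EIF4E2, a cap-binding repressor, was at 0.64 and 0.61. After the exchange the cap-binding list had 3 of 5 genes 2-fold lower in input and 0 of 5 on polyribosomes. The background then had 2343 of 7379 genes 2-fold lower in input and 1031 on polyribosomes.

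Other tRNA methyltransferases reached the METTL1 difference in input in 3 of 19 measured genes, beside 14.3% of the background. Of these members, 3 were at least 2-fold lower and 1 at least 2-fold higher in input, with a list median of 0.12 beside 0.01 over all genes. The background shares past 2-fold were 14.4% lower and 13.2% higher. FTSJ1, which methylates riboses in the anticodon loop, was at 17.30 FPKM in knockdown-labelled input and 68.99 FPKM in control input. HSD17B10, a subunit of the mitochondrial tRNA methyltransferase complex and of RNase P, was at 57.68 FPKM in knockdown-labelled input and 143 FPKM in control input. The highest were TRMO, which methylates an adenosine beside the anticodon, at 1.50, and TRMT12, of wybutosine synthesis, at 0.99.

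On polyribosomes 9 of these 19 genes were at least 2-fold lower and 0 higher, with a median of -0.86. The background shares there were 32.9% lower and 16.7% higher. TRMT6, the partner of the m1A enzyme, was at -2.39 and TRMT10C, of the mitochondrial complex, at -2.27. TRMT2A, which forms 5-methyluridine, was at 0.95 and TRMT12 at 0.52. NSUN2, the main tRNA 5-methylcytosine enzyme, was at 33.12 FPKM in knockdown-labelled input and 24.65 FPKM in control input. On polyribosomes NSUN2 was at 8.47 FPKM in knockdown-labelled cells and 30.73 FPKM in control cells. In the other order 9 of the 19 genes were 2-fold lower in input and 2 on polyribosomes. Of the 7379 background genes 2343 were then 2-fold lower in input and 1031 on polyribosomes. With the trend on GC content and length removed the polyribosome median of the 19 was -0.35 and 6 of the 19 were 2-fold lower.

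Other tRNA modification enzymes were mostly near control in input, in the header's order. Of 33 measured members 2 were at least 2-fold lower and 1 at least 2-fold higher, with a median of -0.18. The background shares in input were 14.4% lower and 13.2% higher. PUS3, a pseudouridine synthase, was the lowest at -1.08, and LAGE3, of the complex that forms threonylcarbamoyladenosine, was at 20.38 FPKM in knockdown-labelled input and 41.77 FPKM in control input. TRIT1, the isopentenyl transferase, was the highest at 1.32, followed by the pseudouridine synthase TRUB2 at 0.71. On polyribosomes 9 of 33 were 2-fold lower and 3 higher, with PUS3 at -3.05, TPRKB, another subunit of that complex, at -2.38, DUS1L, a dihydrouridine synthase, at 1.70 and CTU2, of uridine thiolation, at 1.16. The background shares on polyribosomes were 32.9% lower and 16.7% higher. The list median there was -0.29, close to the -0.28 of all genes. It was -0.67 with GC content and length removed, and -0.33 with the fractions exchanged. After the exchange 9 of the 33 were 2-fold lower and 3 higher in input, with LAGE3 at 0.15 and TRIT1 at -0.84. Of the 7379 background genes 2343 were then lower and 1171 higher in input. On polyribosomes 2 of the 33 were then lower and 1 higher, beside 1031 and 936 of the 7379 background genes.

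Among genes for tRNA processing and export, 0 of 20 were 2-fold lower in input and 4 were 2-fold higher, with a median of 0.30. The background shares were 14.4% lower and 13.2% higher in input, and 32.9% lower and 16.7% higher on polyribosomes. RPP25, of RNase P, was at 15.60 FPKM in knockdown-labelled input and listed at 0 in control input. POP4, another RNase P subunit, was at 1.37, while RPP21, also of RNase P, and XPOT, the tRNA export receptor, were both at -0.74. On polyribosomes 5 of 20 were 2-fold lower and 3 higher, with XPOT at -3.99 and the La protein SSB at -3.04, but POP7 at 1.60. XPOT was at 2.71 FPKM in knockdown-labelled polyribosome RNA and 57.85 FPKM in control polyribosome RNA. In the other order 6 of the 20 were 2-fold lower in input and 1 on polyribosomes. The background then had 2343 of 7379 genes 2-fold lower in input and 1031 on polyribosomes. Among RNA polymerase III genes, which transcribe tRNAs, 2 of 21 were 2-fold lower and 1 higher in input. They were POLR3D at -1.36, CRCP at -1.17 and POLR1C at 1.02, while BRF2, a subunit of an initiation factor, was at 0.91. On polyribosomes 5 were lower and 5 higher, from POLR3D at -1.88 to the repressor MAF1 at 1.79, and GTF3C3 was at -1.76. The median of the polymerase list was 0.35 in input and -0.32 on polyribosomes, and it was -0.21 and 0.34 with the fractions exchanged.

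The 3 tRNA lists were taken as 1 set of 72 measured genes. Of these, 5 were at least 2-fold lower in input, beside 14.4% of the background, and 4 were at least as low as METTL1. Those 4 were FTSJ1, HSD17B10, PUS3 and METTL6, a tRNA 3-methylcytosine enzyme at -1.10 that was named after its values were seen. In the background, 14.3% of genes were at least as low as METTL1 in input and 39.5% on polyribosomes. On polyribosomes 31 of the 72 were at least as low as METTL1. For the mean of both fractions 18 of 72 were, beside 24.8% of the background. After the exchange 31 of the 72 were at least as low in input and 3 on polyribosomes. The shares among genes of like expression to METTL1 were then 49.8% in input and 11.1% on polyribosomes. With GC content and length removed 12 of the 72 were at least as low as METTL1 on polyribosomes. WDR4 lay near the middle, with 33 of 72 at least as low in input and 48 on polyribosomes. In the background the shares at least as low as WDR4 were 45.5% and 62.6%.

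**Figure D3:**
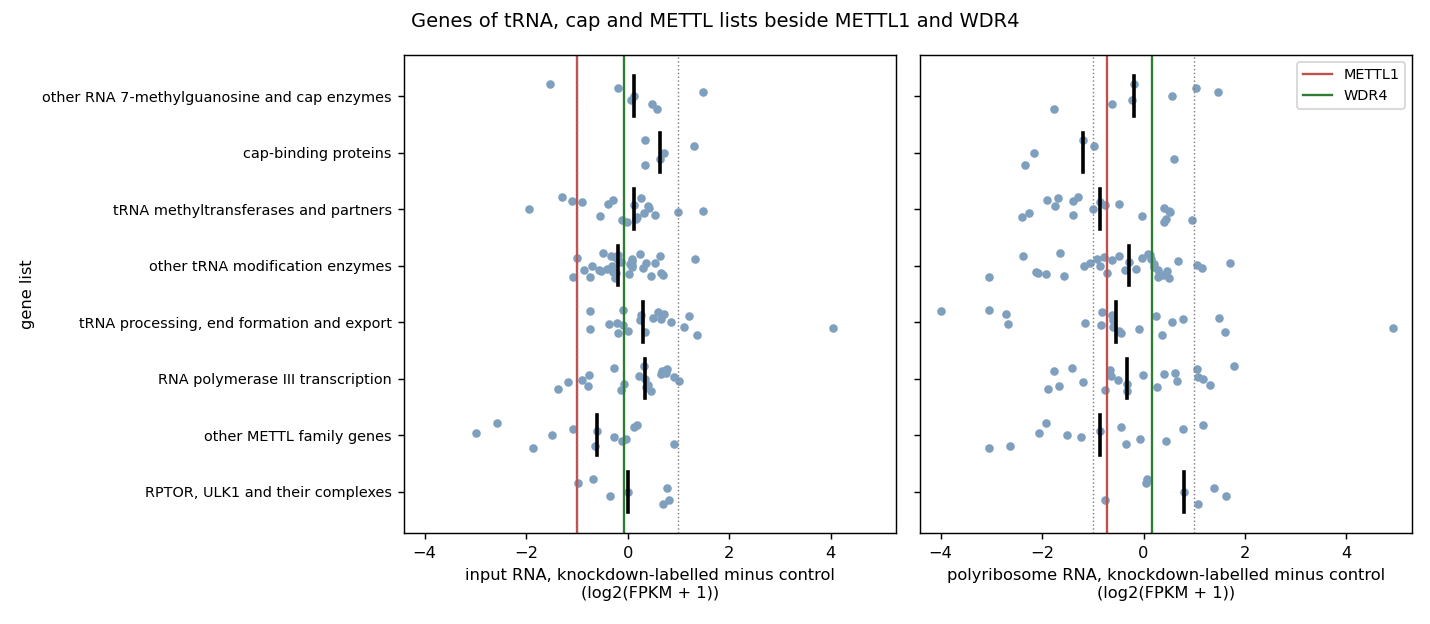
Differences in input RNA (left) and polyribosome RNA (right), knockdown-labelled minus control in log2(FPKM + 1), for list members of the background. Each point is a gene, black bars are list medians, dotted lines mark 2-fold, and the red and green lines stand at METTL1 and WDR4. Most points lie right of METTL1 in input, and on polyribosomes they lie on both sides of it.

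Genes of the METTL family share a name and act on different substrates. There were 13 measured members other than METTL1 and those of the tRNA list. Of these, 5 were at least 2-fold lower and 0 higher in input, with a median of -0.61. The background shares in input were 14.4% lower and 13.2% higher. METTL21A, which methylates HSP70 chaperones, was at 35.84 FPKM in knockdown-labelled input and 289 FPKM in control input. METTL27, listed as WBSCR27, was at 3.70 FPKM in knockdown-labelled input and 26.91 FPKM in control input. METTL7A was the highest at 0.92, followed by METTL26, listed as C16orf13, at 0.18. On polyribosomes 6 of 13 were 2-fold lower and 1 higher, beside 32.9% and 16.7% of the background. METTL3, the catalytic subunit of the mRNA m6A writer, was at -3.05 and METTL5, which methylates ribosomal RNA, at -2.62. C16orf13 was at 1.17 and METTL22 at 0.79. After the exchange 7 of the 13 were 2-fold lower in input and 4 on polyribosomes. Of the 7379 background genes 2343 were then 2-fold lower in input and 1031 on polyribosomes. The 5 METTL genes 2-fold lower in input in the header's order were at least as low as METTL1. So METTL1 was not the lowest of its family.

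RPTOR and ULK1, the messages linked to tRNA m7G in this cancer, were both higher in knockdown-labelled cells. RPTOR, the scaffold subunit of mTORC1, was at 13.28 FPKM in knockdown-labelled input and 7.75 FPKM in control input. On polyribosomes RPTOR was at 18.49 FPKM in knockdown-labelled cells and 8.23 FPKM in control cells. ULK1, the kinase that starts autophagy, was at 15.72 FPKM in knockdown-labelled input and 8.82 FPKM in control input. On polyribosomes ULK1 was at 23.73 FPKM in knockdown-labelled cells and 8.48 FPKM in control cells. In both genes each knockdown-labelled value lay above both control values. The efficiency difference was 0.37 for RPTOR and 0.62 for ULK1, but -0.53 and -0.51 with the fractions exchanged and -0.47 and -0.61 with GC content and length removed. Of the 7 measured genes of the list 0 passed 2-fold in input, and 3 were 2-fold higher and 0 lower on polyribosomes. The background shares were 13.2% higher and 14.4% lower in input, and 16.7% higher and 32.9% lower on polyribosomes. MLST8, of both mTOR complexes, was at 1.63 there and the kinase MTOR at -0.76. ATG13, a partner of ULK1, was at -0.97 in input and 0.05 on polyribosomes. With GC content and length removed, RPTOR was at 0.34, ULK1 at 0.27 and MLST8 at 0.45 on polyribosomes, and 0 of 7 were 2-fold higher. After the exchange these 3 genes, RPTOR, ULK1 and MLST8, passed 2-fold in input and 0 of 7 did on polyribosomes. Of the 7379 background genes 1171 were then 2-fold higher and 2343 lower in input. On polyribosomes 936 of them were then higher and 1031 lower.

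Of the genes near METTL1 on chromosome 12, the nearest on each side were lower and those further out went both ways. In the RefSeq gene order, EEF1AKMT3, listed as METTL21B and encoding a methyltransferase of an elongation factor, lies beside METTL1, and TSFM, a mitochondrial elongation factor, follows it. METTL21B was at 6.80 FPKM in knockdown-labelled input and 10.90 FPKM in control input. TSFM was at 26.54 FPKM in knockdown-labelled input and 23.69 FPKM in control input. On the other side lie CYP27B1, which activates vitamin D, and CDK4, the G1 kinase gene. CYP27B1 was at 0.79 FPKM in knockdown-labelled input and 2.31 FPKM in control input. CDK4 was at 185 FPKM in knockdown-labelled input and 250.09 FPKM in control input, but on polyribosomes at 396 FPKM in knockdown-labelled cells and 222 FPKM in control cells. Among these 4 genes METTL21B and CYP27B1 were lower in both fractions, like METTL1, and TSFM and CDK4 were not. Of the 10 nearest genes of the table on each side, 10 of 20 belonged to the background. Of those, 2 were at least 2-fold lower and 1 higher in input, with a median of -0.07. On polyribosomes 3 were lower and 1 higher, with a median of -0.57. The background shares were 14.4% lower and 13.2% higher in input, and 32.9% lower and 16.7% higher on polyribosomes.

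WDR4 lies on chromosome 21 beside NDUFV3, of respiratory complex I. NDUFV3 was at 28.25 FPKM in knockdown-labelled input and 50.90 FPKM in control input. Beyond it, ERVH48-1 was at 0.02 FPKM in knockdown-labelled input and listed at 0 in control input. On the other side PDE9A, a phosphodiesterase, was at 7.37 FPKM in knockdown-labelled input and listed at 0 in control input, and SLC37A1, a sugar-phosphate exchanger, was at 9.30 FPKM in knockdown-labelled input and 6.40 FPKM in control input. Of the 20 nearest genes 6 belonged to the background, and 0 of these 6 passed 2-fold in input. The background shares in input were 14.4% lower and 13.2% higher. Neighbours past 2-fold in input but below the filter were PDE9A at 3.07, CBS at 3.07, ABCG1 at 1.25 and HSF2BP at -1.04. On polyribosomes 2 of the 6 were 2-fold lower and 1 higher, beside 32.9% and 16.7% of the background. RefSeq lists 0 genes that overlap METTL1 and 1 that overlaps WDR4. That gene has no row in the deposited table, and since the strand setting of the counting is unknown its reads could not be told apart from those of WDR4.

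**Figure D4:**
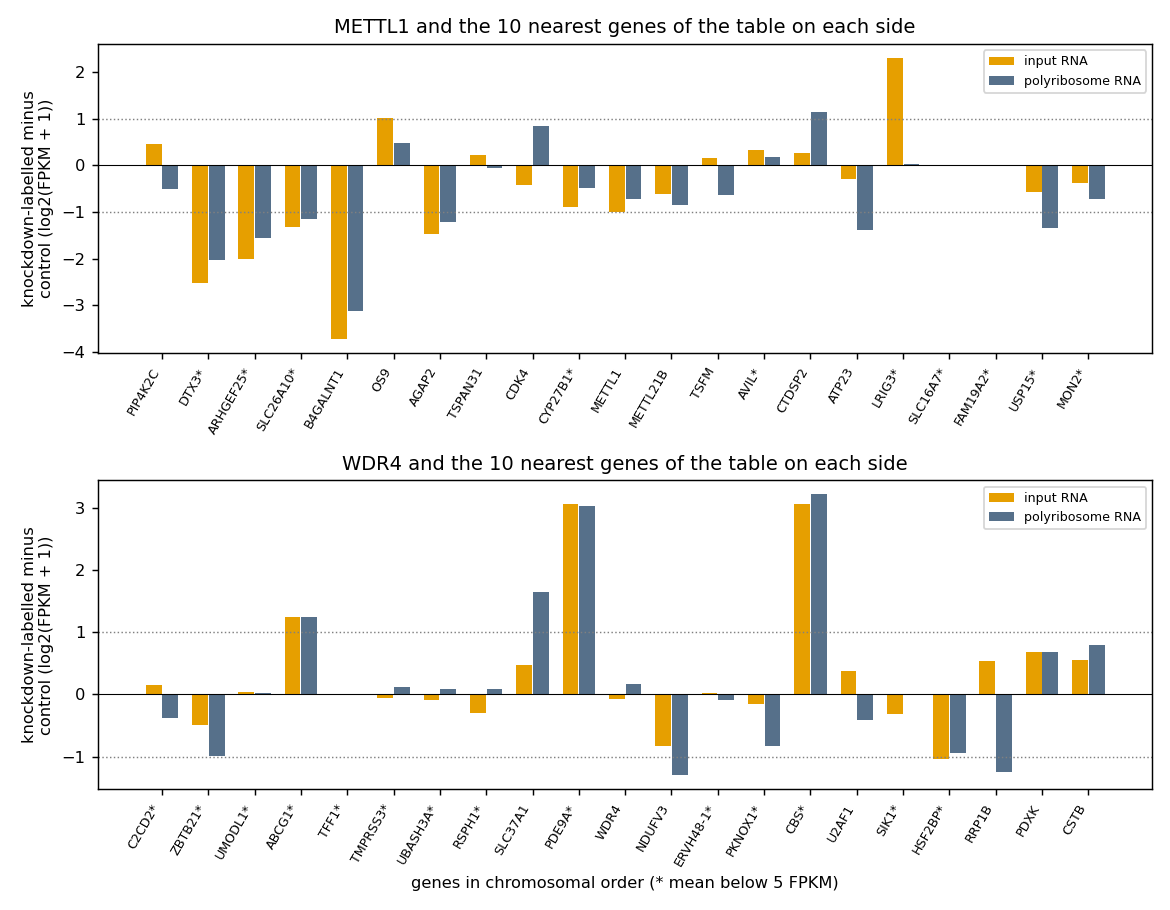
Differences in input and polyribosome RNA, knockdown-labelled minus control in log2(FPKM + 1) (vertical axis), for METTL1 (top) and WDR4 (bottom) and the 10 nearest genes of the table on each side in chromosomal order (horizontal axis, not to scale). Asterisks mark genes with a mean below 5 FPKM and dotted lines 2-fold. The genes directly beside METTL1, CYP27B1 and METTL21B, are lower in both fractions, and genes further out differ in both directions.

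Profiles most like those of the members were sought in the background, by the root mean square distance of the 4 values of log2(FPKM + 1), each centred on the gene's own mean. For METTL1 the nearest 5 were OBSL1, ARHGEF1, MIR205HG, STK32C and MID1IP1, at distances of 0.036 to 0.042. OBSL1, a cytoskeletal adaptor, was at 11.27 FPKM in knockdown-labelled input and 22.07 FPKM in control input. For WDR4 the nearest were ZNF512B, TAP1, PTPN6, ATP5G2 and TUBB3, at 0.015 to 0.024. TAP1, the peptide transporter of antigen presentation, was at 20.95 FPKM in knockdown-labelled input and 22.08 FPKM in control input. The 2 members were at a distance of 0.45 from each other. By this measure WDR4 stood 1830th in the order of likeness to METTL1, so the 2 subunits were far from each other's nearest profiles. With 4 values per gene such likeness is a description of these libraries.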

How the data were processed

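The deposited table gives the FPKM of each gene symbol in 4 libraries, 1 per group by the labels, and a ratio of polyribosome to input FPKM for each kind of cell. TopHat (version not stated), hg19 and GRCh37 are named, per the submitters' processing notes. For the counting tool, annotation and strand setting the entry is "not given in the sources used here". The kit marks strand, per the labels' protocols. The deposited ratio has 5 added to both FPKM (largest gap 5e-10). Of 17064 rows, 26 have a number and 2 no name in place of a symbol.

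Values above 0 begin at 0.01 FPKM, the rounding step, so no depth could be recovered. Differences are of log2(FPKM + 1), knockdown-labelled minus control, with no test. The background is the 7379 genes whose mean reached 5 FPKM. The 8 gene lists, the members and the rules were chosen with earlier results of these data known. Named were, for each list, its 2 highest and 2 lowest members past the filter in a difference, plus TRMT112, BUD23, RNMT, RAMAC and NSUN2, the 5 nearest profiles and the 2 nearest genes on each side. Here they are given for input and polyribosome RNA, and 1 of them is not reported here. Older symbols were matched by RefSeq synonyms (GRCh38.p14, used for names and gene order alone). GC content and length came from 1 transcript per gene in GENCODE 29, matched for 7344 genes (99.5%), and a quadratic trend was removed. Alternatives were pseudocounts of 0.1 and 5, exchanged fractions, median centring, upper quartile scaling, that trend, other filters and other windows of likeness. The code was tested on simulated data. Python 3.11.15, numpy 2.4.6 and pandas 2.3.3 were used. No sequence is shown.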

Additional observations from a re-analysis of the deposited data

Results flagged for a closer look

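WDR4 differed from control in opposite directions in the 2 RNA fractions of the same cells, with -0.08 in input and 0.16 on polyribosomes, which makes an efficiency difference of 0.24. Each fraction has 1 library per group, so the difference between fractions was not tested, and it turns to -0.54 with the fractions exchanged.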

How the results depend on the processing

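No paired analysis was possible because each group holds 1 library, and for the same reason no library could be left out. Of 76 alternative values of the main results, 52 kept their side of 2-fold and moved by at most 0.2 (log2) or 1.5 times (shares). With the fractions exchanged, METTL1 was at -0.59 in input, -1.13 on polyribosomes and -0.55 in efficiency, and WDR4 at 0.31, -0.23 and -0.54. The shares of peers at least as low were then 49.8% and 11.1% for METTL1 and 38.9% for WDR4 on polyribosomes, and the NSUN6 efficiency difference turned to 1.63. With GC content and length removed METTL1 was at -0.99 in input, -1.31 on polyribosomes and -0.32 in efficiency, and WDR4 at -0.52 on polyribosomes and -0.46 in efficiency. Centred on the median of all genes, the polyribosome differences were -0.44 for METTL1 and 0.44 for WDR4. With a pseudocount of 5 METTL1 was at -0.71 in input, and averaged over both fractions at -0.86. The log2 ratio of METTL1 to WDR4 was -0.66 in knockdown-labelled input and -0.69 on polyribosomes with a pseudocount of 5, and its change -0.65 and -0.67. With a pseudocount of 0.1 the input ratio was -1.04 and its change -1.03. Over all alternatives run, the METTL1 difference stayed below that of WDR4 in both fractions. Some background counts moved past 1.5 times, and the filters also changed the number of genes counted. With the fractions exchanged 2343 genes were 2-fold lower in input, 1031 on polyribosomes and 464 in efficiency (as reported 1065, 2426 and 2221), and 2049 were higher in efficiency (885). On polyribosomes 3755 of 10683 genes were lower at a mean of 1 FPKM. They were 3818 of 17064 with no filter and 1612 of 5633 at 10 FPKM, beside 2426 of 7379 as reported. With no filter 1679 of 17064 genes were lower and 1615 higher in input (973 higher as reported), and 3344 lower in efficiency. The causes were not tested.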

Other observations

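CBS and PDE9A, both among the near neighbours of WDR4, stood apart from it. CBS, the first enzyme of cysteine synthesis from homocysteine, was at 7.55 FPKM in knockdown-labelled input and 0.02 FPKM in control input. On polyribosomes CBS was at 8.67 FPKM in knockdown-labelled cells and 0.04 FPKM in control cells. B4GALNT1, a ganglioside synthase near METTL1, was at 0.32 FPKM in knockdown-labelled input and 16.39 FPKM in control input. CBS, ABCG1, HSF2BP and B4GALNT1 fall outside the rule for named genes and were picked for their values.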
